A study of Mus musculus with 8 samples.

Results

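Antigen receptor genes are the gene segments from which B cells and T cells assemble immunoglobulins and T cell receptors. The rows described here were selected on their annotated gene type (constant C, diversity D, joining J or variable V segments of immunoglobulin or T cell receptor genes) and on a summed raw count of at least 10 over the 8 libraries. By this rule 69 of 55450 gene rows were members, out of 490 rows with these types. Another 407 of those rows had no count in any library and 14 had a summed count of 1 to 9. Of the members 52 belonged to immunoglobulin chains (20 heavy, 27 kappa and 5 lambda) and 17 to T cell receptor chains (7 alpha, 4 beta, 4 gamma and 2 delta).

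RNA was sequenced from 8 c-Kit bead preparations of B16F10 tumours, B16F10 being a melanoma line from C57BL6 mice. The bead target c-Kit (gene Kit) is a growth factor receptor found on blood cell precursors, mast cells and melanocytes. The injected tumour cells were PERK KO B16F10 in 4 libraries (numbered 1 to 4) and Scramble B16F10 in 4 libraries (numbered 2 to 5). PERK is a stress kinase of the endoplasmic reticulum, and Scramble cells are the control line. All hosts were wild-type C57BL6 mice injected under the skin with 150000 tumour cells at 6 weeks of age, and all tumours were taken on day 17. The labels give the PERK deletion for the tumour cells only, not for the hosts. Whether the knockout line is 1 clone is not given in the sources used here. Each library came from a separately numbered tumour, but no label says that each tumour came from a separate mouse, so the p-values measure the spread between these tumours.

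Library totals were 29006949 to 47530393 counts in PERK KO and 44950033 to 56697163 counts in Scramble. Eif2ak3, which encodes PERK, had 7.73 to 22.7 CPM in PERK KO and 48.3 to 59.2 CPM in Scramble libraries. CPM is the count relative to the TMM-scaled library total, as edgeR gives it. Kit itself had 175 ± 37.8 CPM in PERK KO and 196 ± 23.7 CPM in Scramble (SD, n = 4 each, edgeR adjusted p = 0.559). Melanocyte RNA was present in every library, with 8 lineage genes that summed to 16000 to 19500 CPM in PERK KO and 23600 to 24200 CPM in Scramble libraries. A count of 3, taken as the floor below which a level cannot be told from 0, equals 0.0697 to 0.1 CPM in PERK KO and 0.0515 to 0.065 CPM in Scramble libraries. Floors and the intervals given below cover counting error only, since these reads carry no molecular identifiers.

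As background, a developing lymphocyte joins 1 V, sometimes 1 D, and 1 J segment by DNA recombination, and the joined exon is spliced to a constant segment. A B cell first makes IgM from Ighm, by splicing also IgD from Ighd, and can later switch to the IgG, IgE or IgA constant genes. Kappa (Igkc) or lambda (Iglc) light chains complete the antibody. Alpha and beta chains, or gamma and delta chains, form the T cell receptor. Since V, D and J choice differs between clones, a constant gene sums over all clones and a V gene over the clones that use it.

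V segments are told apart only by their sequence, so the 2 segments that had counts in all 4 PERK KO libraries are printed from GENCODE M21 (mm10) before their values. The stretch is the coding part of the V exon, 5′ to 3′ on the coding strand. The kappa segment Igkv14-126 lies at chr6:67896345-67896642 (plus strand). Its 27 capitals mark the bases at which it differs from Igkv14-111, the related segment chosen for comparison, with which it is 90.9% identical. The heavy segment Ighv11-2 lies on the minus strand of chromosome 12, and the first 300 of its 307 bases are shown (chr12:114048248-114048547). Its 4 capitals mark the differences from Ighv11-1, at 98.7% identity.
Igkv14-126: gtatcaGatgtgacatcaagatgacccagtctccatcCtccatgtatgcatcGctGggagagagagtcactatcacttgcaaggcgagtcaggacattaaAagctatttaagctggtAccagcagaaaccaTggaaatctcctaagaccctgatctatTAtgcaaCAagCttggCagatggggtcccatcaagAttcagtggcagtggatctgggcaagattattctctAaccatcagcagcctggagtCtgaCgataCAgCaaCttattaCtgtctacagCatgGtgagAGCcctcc
Ighv11-2: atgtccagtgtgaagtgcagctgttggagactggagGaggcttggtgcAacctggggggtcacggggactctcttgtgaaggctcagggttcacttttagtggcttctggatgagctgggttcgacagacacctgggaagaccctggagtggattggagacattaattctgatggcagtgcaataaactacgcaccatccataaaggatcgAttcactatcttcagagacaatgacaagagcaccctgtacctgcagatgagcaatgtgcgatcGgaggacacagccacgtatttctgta
No stretch of 105 bases, the read length, in Igkv14-126 occurred in the transcript of another gene. In Ighv11-2, 16.2% of such stretches were shared with Ighv11-1, which had no count in any library. Over all members, 43 shared no such stretch with another gene, 23 shared at least 1, and 3 were shorter than a read.

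The 3 lambda constant genes on chromosome 16 (minus strand) are shown by their first 120 coding bases, because Iglc1 was tested and called, Iglc2 and Iglc3 were not tested, and 2 of them are near copies. Capitals mark bases that differ from, or have no counterpart in, at least 1 of the other 2 genes. The positions are chr16:19061952-19062071 for Iglc1, chr16:19198731-19198850 for Iglc2 and chr16:19065562-19065681 for Iglc3.
Iglc1: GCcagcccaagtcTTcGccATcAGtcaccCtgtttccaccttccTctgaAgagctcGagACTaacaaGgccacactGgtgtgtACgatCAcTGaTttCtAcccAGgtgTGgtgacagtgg
Iglc2: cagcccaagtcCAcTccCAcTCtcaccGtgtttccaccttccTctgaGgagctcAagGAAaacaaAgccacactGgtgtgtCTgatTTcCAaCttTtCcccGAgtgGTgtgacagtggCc
Iglc3: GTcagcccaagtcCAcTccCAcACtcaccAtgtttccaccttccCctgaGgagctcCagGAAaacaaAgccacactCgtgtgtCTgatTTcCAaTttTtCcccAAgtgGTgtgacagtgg
Over the aligned coding bases Iglc2 and Iglc3 were 96.5% identical and Iglc1 and Iglc2 were 74.7% identical. None of the 3 shared a 105-base stretch with another gene.

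Immunoglobulin transcripts were more abundant in every PERK KO library than in any Scramble library. The 52 immunoglobulin members summed to 45.9, 93.6, 110 and 279 CPM in PERK KO libraries 1 to 4, against 20.9, 8.48, 3.62 and 5.57 CPM in Scramble libraries 2 to 5. The means were 132 ± 102 CPM in PERK KO and 9.64 ± 7.76 CPM in Scramble (SD, n = 4 each), a ratio of 13.7. That ratio was 8.6 without PERK KO library 4, the highest, and 22.3 without Scramble library 2, the highest of its group. T cell receptor members were scarcer. They summed to 2.24, 7.56, 4.3 and 14.3 CPM in PERK KO libraries 1 to 4, against 0.579, 1.1, 0.173 and 0.522 CPM in Scramble libraries 2 to 5, and again the groups did not overlap. The ratio of means was 12.0, and 7.9 without PERK KO library 4. Over all rows of the gene types, with no minimum count, the ratio was 10 for T cell receptor rows and 13.6 for immunoglobulin rows. No test was made of these sums, since the members were chosen with results of these data known. In such bulk RNA more cells of a type and more RNA per cell cannot be told apart.

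**Figure D1:**
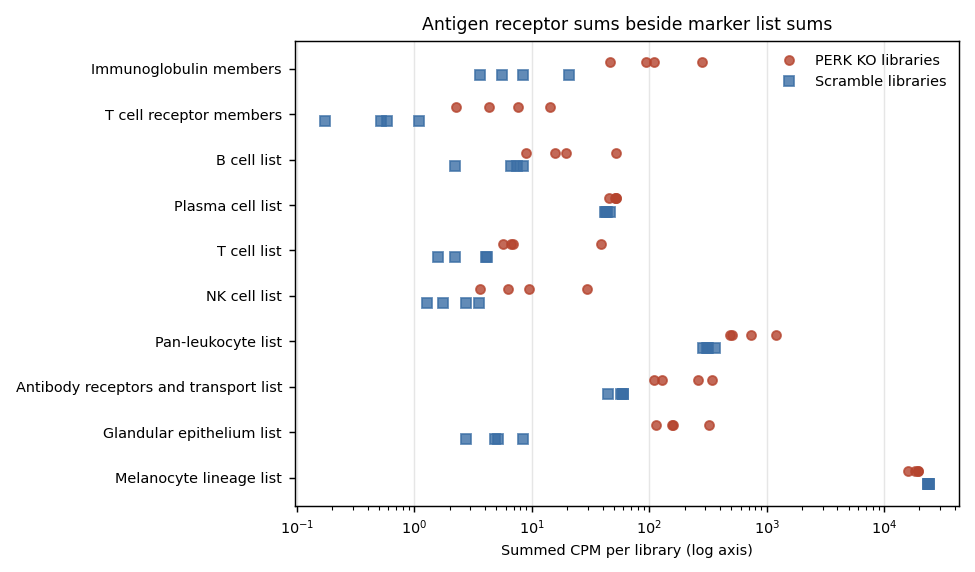
Summed CPM per library (log axis) of the immunoglobulin and T cell receptor members and of 8 marker lists, with PERK KO libraries as circles above Scramble libraries as squares. Immunoglobulin sums were 45.9 to 279 CPM in PERK KO and 3.62 to 20.9 CPM in Scramble libraries, and melanocyte sums were 16000 to 19500 CPM in PERK KO and 23600 to 24200 CPM in Scramble libraries.

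Of the 69 members, 9 had enough counts to enter the edgeR test and 60 did not. Among the 9, 4 were called higher in PERK KO and 0 lower at a Benjamini-Hochberg adjusted p under 0.05, and over all 16662 genes tested 7.66% were called higher. At an unadjusted p under 0.05 there were 7 higher and 0 lower, and DESeq2 called 6. In 7 of the 9, every PERK KO library lay above every Scramble library, which held for 10.2% of all genes tested. A member that passed the filter through its PERK KO counts alone had to differ, so these counts describe the 9 genes and support nothing about the other 60. The median log2 change of the 9 was 3.92, beside -0.02 over all genes tested.

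Ighm, the constant gene of IgM (chromosome 12, 113418558 to 113422730, mm10), had the largest count of all members, 13816 over the 8 libraries. It had 28, 54.7, 68.4 and 173 CPM in PERK KO libraries 1 to 4, against 12.2, 4.02, 2.12 and 2.9 CPM in Scramble libraries 2 to 5. The lowest PERK KO library stood above the highest Scramble library, and PERK KO library 4 was far above the other three. Ighm rose by 3.92 on the log2 scale (SE 0.79, n = 4 each, edgeR adjusted p = 0.0177). The log2 change was 3.24 without PERK KO library 4 and 4.73 without Scramble library 2, and the call ended without Scramble library 3 (edgeR adjusted p = 0.0673) or 5 (0.0521). Ighd, the constant gene of IgD downstream of Ighm, had 0.201, 0.512, 1.18 and 3.93 CPM in PERK KO libraries 1 to 4, against 0.0362, 0.464, 0 and 0.348 CPM in Scramble libraries 2 to 5. The groups overlapped at Ighd, and the difference of 2.76 on the log2 scale did not pass (SE 1.36, edgeR adjusted p = 0.222).

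The heavy chain constant counts were mostly Ighm in every library. Ighm took 99.3, 99.1, 98.1 and 97.3% of them in PERK KO libraries 1 to 4, against 97.1, 87.3, 100 and 89.3% in Scramble libraries 2 to 5. The exact 95% Clopper-Pearson intervals reached down to 96.9% in PERK KO and 82.7% in Scramble libraries. Ighd made up 0.712, 0.928, 1.7 and 2.22% of the joint Ighm and Ighd counts in PERK KO libraries 1 to 4. In Scramble libraries 2 to 5 it made up 0.296, 10.3, 0 and 10.7%, so the Ighd share was above every PERK KO value in Scramble libraries 3 and 5 and below every one in Scramble libraries 2 and 4, where the intervals reached up to 1.07 and 3.69%.

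Counts of switched isotypes were few. They came to 0, 0, 0.233 and 0.455% of heavy constant counts in PERK KO libraries 1 to 4, against 2.6, 2.61, 0 and 0% in Scramble libraries 2 to 5. With 98 and 168 heavy constant counts, the 2 Scramble libraries at 0 allow shares of up to 3.69 and 2.17% (Clopper-Pearson). Ighg3 (IgG3) had 31 counts, all in PERK KO library 4, and Ighg1 (IgG1) had 15 counts, all in Scramble library 2. Below the limit of 10, Ighg2c had 9 counts and Igha, the IgA gene, had 8, which lay in Scramble libraries 2 and 3. Ighe and Ighg2b had no count anywhere.

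Igkc, the kappa constant gene (chromosome 6, 70726435 to 70726966), was likewise higher. Its level was 9.68, 26.1, 23.9 and 55.9 CPM in PERK KO libraries 1 to 4, against 3.77, 2.22, 1.06 and 1.32 CPM in Scramble libraries 2 to 5. The groups did not overlap, and Igkc rose by 3.78 on the log2 scale (SE 0.60, n = 4 each, edgeR adjusted p = 0.00558), a call that stood in each of the 8 fits without 1 library. Per kilobase of exon the mean level was 54.4 CPM for Igkc and 42.9 CPM for Ighm in PERK KO, and 3.93 CPM for Igkc and 2.81 CPM for Ighm in Scramble. The ratio of Ighm to Igkc counts per base of exon ran from 0.591 to 0.87 in PERK KO and from 0.512 to 0.913 in Scramble libraries, overlapping ranges.

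Iglc1, a lambda constant gene, had 0.67, 5.07, 0.813 and 7.36 CPM in PERK KO libraries 1 to 4, against 0.145, 0.309, 0 and 0 CPM in Scramble libraries 2 to 5. It rose by 4.88 on the log2 scale (SE 1.28, n = 4 each, edgeR adjusted p = 0.0266). Levels in PERK KO libraries 2 and 4 were several times those in 1 and 3. The call ended without PERK KO library 2 (adjusted p = 0.0579) or 4 (0.0773, log2 change 4.21) and without Scramble library 2 (0.0771), 4 (0.0571) or 5 (0.0609), while without Scramble library 3 the log2 change was 6.04. Iglc2 had 0, 0, 0.186 and 7.49 CPM in PERK KO libraries 1 to 4, against 0.272, 0.0859, 0 and 0.0387 CPM in Scramble libraries 2 to 5, so nearly all of it lay in PERK KO library 4. Iglc3 had 10 counts, all in Scramble library 3. When the 3 genes were summed to 1 row, a choice made after seeing the data, the log2 change was 4.37 (edgeR adjusted p = 0.0555).

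The lambda share of light chain constant counts was 6.47, 16.3, 4.0 and 21% in PERK KO libraries 1 to 4, against 9.96, 20.4, 0 and 2.86% in Scramble libraries 2 to 5. The ranges overlapped. Exon bases of Iglc2 are shared with Iglj2 on the same strand, and those of Iglc3 with 2010309G21Rik on the opposite strand, so their counts are less certain than that of Iglc1.

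**Figure D2:**
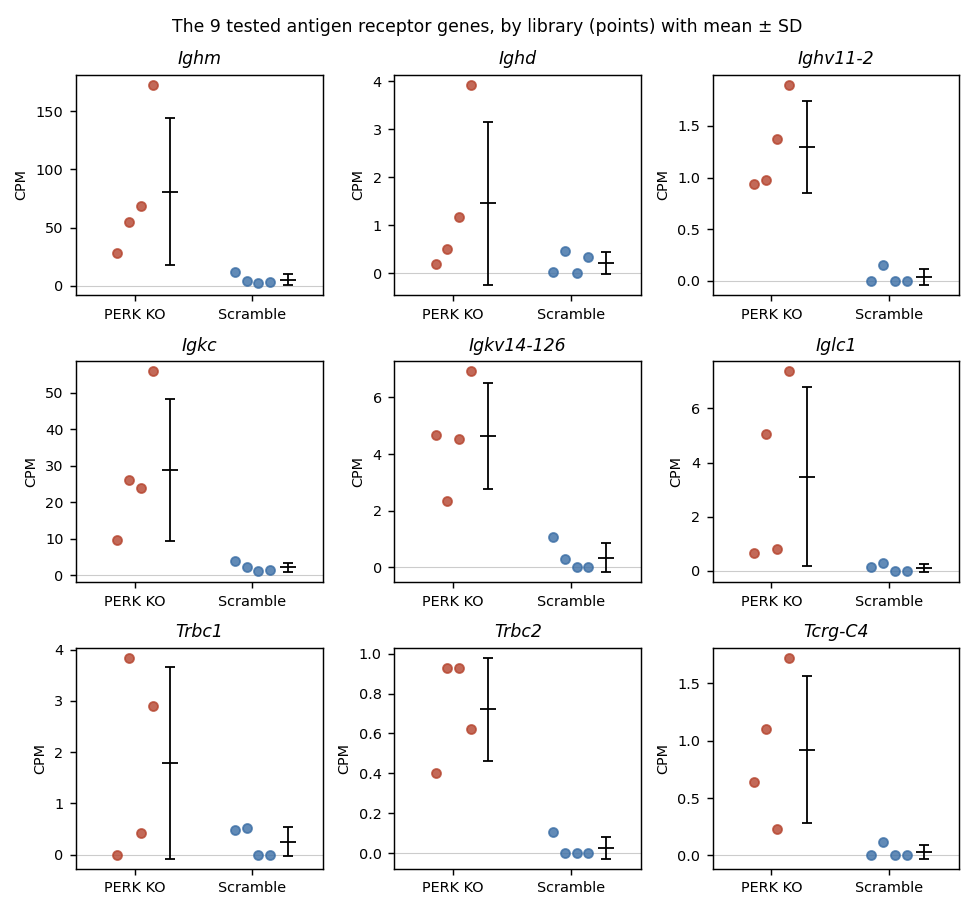
Level in CPM of the 9 tested members, 1 panel per gene with its own axis, PERK KO left of Scramble. Points are libraries in number order from left to right, and the black bar is the mean with its SD (n = 4). The groups overlap at Ighd and Trbc1 and at none of the other 7 genes.

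Among V segments, Igkv14-126 had the most counts. Its level was 4.69, 2.34, 4.55 and 6.92 CPM in PERK KO libraries 1 to 4, against 1.07, 0.309, 0 and 0 CPM in Scramble libraries 2 to 5. The groups did not overlap, but the difference of 3.73 on the log2 scale did not pass the test (SE 1.21, n = 4 each, edgeR adjusted p = 0.0678). Without Scramble library 2 it was 5.39 and passed (adjusted p = 0.0268).

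Ighv11-2 (chromosome 12, 114048241 to 114048812) had 0.938, 0.976, 1.37 and 1.9 CPM in PERK KO libraries 1 to 4, against 0, 0.155, 0 and 0 CPM in Scramble libraries 2 to 5. It was called higher, with a log2 change of 4.93 (SE 1.51, n = 4 each, edgeR adjusted p = 0.0495), at the edge of the threshold. The call ended with the replicate number as a block (edgeR adjusted p = 0.195). It also ended in 11 of the 15 other alternative settings (edgeR adjusted p = 0.0507 to 0.122). Among these were RLE, upper-quartile and library-total scaling and 7 of the 8 fits without 1 library. All Scramble counts of Ighv11-2, 9, lay in library 3, without which the fitted log2 change was 8.82. In mice, the segments Ighv11-2 and Igkv14-126 are known to occur together in antibodies against phosphatidylcholine made by B-1 cells. Bulk counts do not show which heavy and light chains came from the same cell. The other pair known for that specificity did not appear as a pair, since Ighv12-3 had no count in any library and Igkv4-91 had 50 counts, all in PERK KO library 2.

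In all 4 PERK KO libraries, and in Scramble libraries 2 and 3, Igkv14-126 held more counts than any other kappa V segment. It took 93.3, 52.2, 39.2 and 37.4% of kappa V counts in PERK KO libraries 1 to 4, against 45.7, 46.2, 0 and 0% in Scramble libraries 2 to 5. Scramble libraries 4 and 5 had 20 and 46 kappa V counts, from 2 segments each, which allow shares of up to 16.8 and 7.71% (Clopper-Pearson). Such limits take reads as independent draws, whereas counts came in blocks, so they do not measure a group difference in V use. That difference was not tested. Ighv11-2 took 41.2, 36.4, 41.0 and 20.6% of heavy V counts in PERK KO libraries 1 to 4, against 0, 24.3, 0 and 0% in Scramble libraries 2 to 5. For Scramble library 2, with 95 heavy V counts, the upper limit was 3.81%. Scramble libraries 4 and 5 had 1 and 4 heavy V counts, too few for a share.

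**Figure D3:**
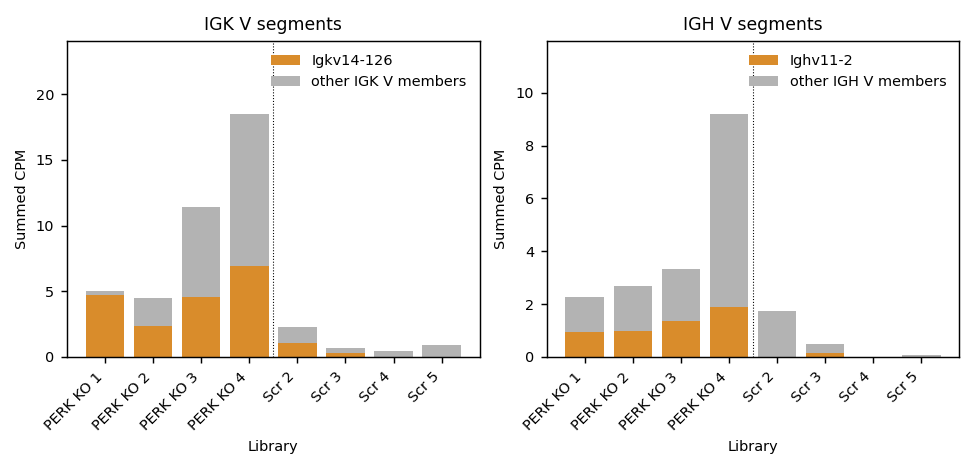
Summed CPM of kappa V segments (left) and heavy chain V segments (right) in each library, with the PERK KO libraries left of the dotted line. Orange is Igkv14-126 or Ighv11-2, and grey is the sum of the other 25 kappa or 13 heavy V members, which reached 11.6 and 7.31 CPM in PERK KO library 4.

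Most other V members were seen in a single library. Of 51 V members 30 had counts in 1 library, 14 in 2 libraries and 7 in 3 or more. The heavy V segment Ighv1-9 had 70 counts in PERK KO library 2 and none elsewhere, 63.6% of the heavy V counts there. In PERK KO library 4 the leading heavy V segment was Ighv10-1 with 2.57 CPM, and this gene also had 0.837 CPM in PERK KO library 1, 0.139 CPM in PERK KO library 3 and 0.12 CPM in Scramble library 3. Ighv6-3 had 0.604 and 0.754 CPM in PERK KO libraries 3 and 4, against 0.38 and 0.0774 CPM in Scramble libraries 2 and 5. Ighv4-1 led the heavy V counts of Scramble libraries 2 and 3, with 0.579 and 0.206 CPM, and had no count in PERK KO.

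Kappa V segments were likewise scattered over single libraries. Igkv12-44 had 1.93 and 0.572 CPM in PERK KO libraries 3 and 4 and none elsewhere, and Igkv8-16 had 2 CPM in PERK KO library 4 alone. Igkv8-16 shared 62.2% of its 105-base stretches with the gene Gm43218. In the Scramble libraries without Igkv14-126, the leading kappa V segments were Igkv1-110 with 0.303 CPM in library 4 and Igkv19-93 with 0.522 CPM in library 5. Lambda V counts were found in PERK KO library 4, where Iglv1 had 3.17 CPM, and in Scramble libraries 2 and 3, where Iglv2 had 0.199 CPM and Iglv1 had 0.0687 CPM.

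D and J segments are short and were almost absent. Of 19 immunoglobulin D rows 1 was a member, Ighd4-1, with 14 counts in PERK KO library 3 and none elsewhere. Its germline sequence of 11 bases (chr12:113430528-113430538, minus strand) is ctaactgggac, far below the read length, so a read counted there extends past the segment. Ighj2 had 11 counts in the same library, and the alpha chain segment Traj15, of 60 bases, had 12 counts in PERK KO library 1. The V counts were also below the constant counts, in raw counts not corrected for length. Exon length was 1886 bases for Ighm and 350 to 461 bases for the heavy V members. It was 532 bases for Igkc and 347 to 404 bases for the kappa V members. The ratios below therefore do not show how V and constant exons compare per base. For each 100 Ighm counts there were 8.12, 4.9, 4.89 and 5.33 heavy V counts in PERK KO libraries 1 to 4, against 14.1, 15.8, 1.02 and 2.67 in Scramble libraries 2 to 5. For each 100 Igkc counts there were 17.2 to 51.9 kappa V counts in PERK KO and 30.2 to 67.6 in Scramble libraries.

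**Figure D4:**
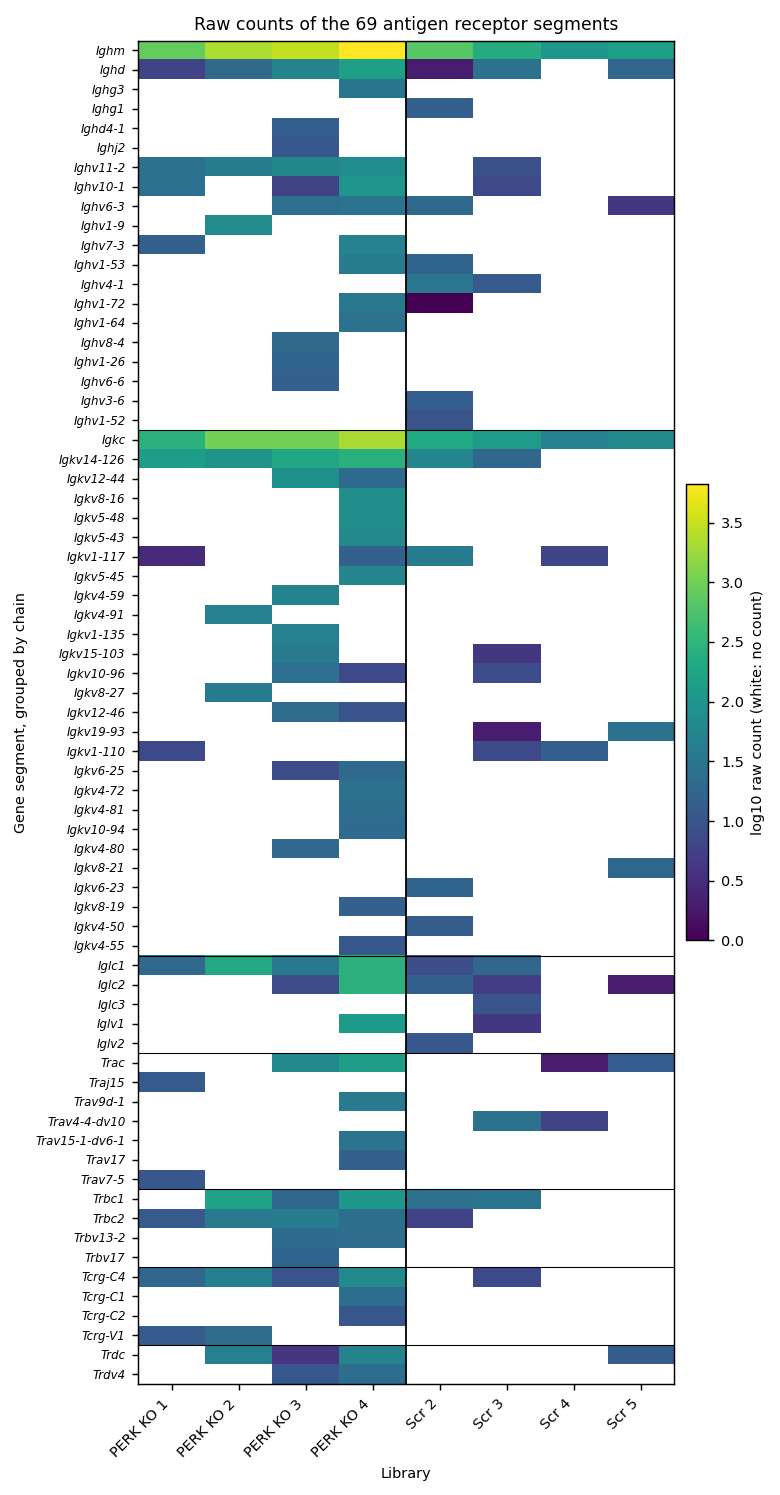
Raw counts of the 69 members on a log10 colour scale, rows grouped by chain and columns by library, with PERK KO left of Scramble and white for no count. Ighm and Igkc are filled in all 8 libraries, and 38 members are filled in 1 library only.

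T cell receptor constant genes had few reads, at most 157 counts in a library. Trbc2, a beta chain constant gene (chromosome 6, 41546730 to 41548352), had 0.402, 0.927, 0.929 and 0.624 CPM in PERK KO libraries 1 to 4, against 0.109, 0, 0 and 0 CPM in Scramble libraries 2 to 5. The groups did not overlap, and the difference of 4.58 on the log2 scale did not pass (SE 1.61, n = 4 each, edgeR adjusted p = 0.085). It passed without Scramble library 2 (log2 change 7.99, adjusted p = 0.0495), which held all 6 Scramble counts, and with DESeq2 (adjusted p = 0.00975). Trbc1, the other beta constant gene, had 0, 3.83, 0.418 and 2.89 CPM in PERK KO libraries 1 to 4, against 0.471, 0.515, 0 and 0 CPM in Scramble libraries 2 to 5. These groups overlapped (log2 difference 2.83, SE 1.64, edgeR adjusted p = 0.311). Trbc1 and Trbc2 were 95.6% identical in coding bases and shared 27.3 and 29.4% of their 105-base stretches, so reads can be split between them. Summed to 1 row they differed by 3.17 on the log2 scale (edgeR adjusted p = 0.145).

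Trac, the alpha constant gene, had 1.46 and 3.54 CPM in PERK KO libraries 3 and 4 and no count in PERK KO libraries 1 and 2. In Scramble it had 0.0433 and 0.271 CPM in libraries 4 and 5 and none in libraries 2 and 3, so alpha and beta constant counts did not always occur together. PERK KO library 2, for one, had 157 Trbc1 counts and no Trac count.

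Among the gamma and delta chains, Tcrg-C4 (chromosome 13, 19344558 to 19352756) had 0.636, 1.1, 0.232 and 1.72 CPM in PERK KO libraries 1 to 4, against 0, 0.12, 0 and 0 CPM in Scramble libraries 2 to 5. No overlap was seen, but the difference of 4.78 on the log2 scale did not pass (SE 1.62, n = 4 each, edgeR adjusted p = 0.0738). Without Scramble library 3, which held all 7 Scramble counts, the fitted change was 8.33, and DESeq2 gave an adjusted p of 0.00607. Tcrg-C1 and Tcrg-C2 had 24 and 11 counts, all in PERK KO library 4. The delta constant gene Trdc had 0, 1.15, 0.0929 and 1.33 CPM in PERK KO libraries 1 to 4, against 0, 0, 0 and 0.252 CPM in Scramble libraries 2 to 5. Trdc exons overlap Gm43434 and Trdv5 on the opposite strand, so its counts are uncertain.

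Gamma and delta genes together took 61.3, 32.1, 10.4 and 35.9% of T cell receptor constant counts in PERK KO libraries 1 to 4, against 0, 18.9, 0 and 48.1% in Scramble libraries 2 to 5. The ranges overlapped, and the Scramble shares rest on 2 to 37 counts. T cell receptor V members numbered 9. Tcrg-V1 had 0.435 and 0.561 CPM in PERK KO libraries 1 and 2, Trbv13-2 had 0.511 and 0.598 CPM in PERK KO libraries 3 and 4, and Trdv4 had 0.255 and 0.624 CPM in the same libraries. None of these 3 had a Scramble count. Trav4-4-dv10 had 0.464 and 0.13 CPM in Scramble libraries 3 and 4 and no count in PERK KO.

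Counts of the members came in blocks. Of 552 values, 1 for each member and library, 400 were 0, 6 were 1 to 3, 20 were 4 to 9 and 126 were 10 or more. Among members with a total of 10 to 99, 3.9% of the nonzero values were 1 to 3, against 12.2% in other protein coding rows with such totals. In PERK KO alone 37 members had counts, in Scramble alone 11, and in both groups 21. A row could reach the limit of 10 counts through 1 group alone. No such split was made for other gene rows, so these numbers describe the members only. Of the 38 members seen in 1 library, 16 were in PERK KO library 4, 9 in PERK KO library 3 and 6 in Scramble library 2. At the threshold, Ighv1-52 and Iglc3 with 10 counts and Ighj2 with 11 were just inside, and Ighg2c, Ighv7-1 and Trav14-3 with 9 counts each were just outside.

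Among 14 listed B cell genes 10 were tested, and 1 rose and 0 fell, with a median log2 change of 2.26. Over all genes tested 7.66% were called higher, the share to set beside this and each list below. At an unadjusted p under 0.05 there were 3 genes of the list. Besides Blnk these were Cd22 and Fcrla, with log2 differences of 2.45 and 3.02 that did not pass (edgeR adjusted p = 0.096 and 0.174). Blnk, an adaptor of B cell receptor signalling that other blood cells also use, rose by 2.46 (SE 0.50, edgeR adjusted p = 0.00876). Ms4a1, which encodes CD20, had 0, 0, 0.255 and 2.03 CPM in PERK KO libraries 1 to 4, against 0.145, 0.155, 0 and 0 CPM in Scramble libraries 2 to 5. Cd79a, the signalling chain of the B cell receptor, had 0.636, 0.342, 0.789 and 7.49 CPM in PERK KO libraries 1 to 4, against 1.43, 1.27, 0.303 and 1.28 CPM in Scramble libraries 2 to 5. Pax5, the transcription factor of the B cell lineage, had 1.61, 0, 1.9 and 3.15 CPM in PERK KO libraries 1 to 4, against 0.272, 0.412, 0.0866 and 0.813 CPM in Scramble libraries 2 to 5 (edgeR adjusted p = 0.33). For Cd79a and Pax5 the groups overlapped. The log2 difference of Cd79a was 1.11, and -0.86 without PERK KO library 4 (edgeR adjusted p = 0.526 and 0.602). DESeq2 called 2 genes of the list, Blnk and Cd22. The summed list was 8.98 to 52.5 CPM in PERK KO and 2.21 to 8.49 CPM in Scramble libraries, and its part in the Ighm and Igkc results was not tested.

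Of 10 plasma cell genes 6 were tested, and 1 rose and 0 fell (median log2 change 1.12). That gene was Jchain, which joins IgM and IgA into polymers. It had 1.17, 1.02, 4.11 and 2.76 CPM in PERK KO libraries 1 to 4, against 0.163, 0, 0 and 0 CPM in Scramble libraries 2 to 5 (log2 change 5.68, SE 1.38, edgeR adjusted p = 0.0192). The Jchain call ended without PERK KO library 3 (adjusted p = 0.0538) or Scramble library 3 (0.0587) or 5 (0.0521), and without Scramble library 2, which held its only Scramble counts, the fitted change was 9.64. DESeq2 called 2 genes of the plasma cell list, Jchain and Tnfrsf13b. With edgeR the log2 difference of Tnfrsf13b was 2.19 and did not pass (edgeR adjusted p = 0.0715). Tnfrsf17 (BCMA), which marks plasma cells, had no count anywhere. The list summed to 45.8 to 52.3 CPM in PERK KO and 42.2 to 46.5 CPM in Scramble libraries. Sdc1, which tumour and epithelial cells also make, accounted for 23.6 to 40 CPM in PERK KO and 30.4 to 33 CPM in Scramble libraries. Most genes of receptor assembly were at or near 0. Rag1 and Rag2, the recombinase, and Igll1 and Vpreb2, parts of the surrogate light chain, had no count in any library. Dntt, which adds bases at V(D)J joints, had 0.805 CPM in PERK KO library 2 and no count elsewhere. Vpreb1, another part of the surrogate light chain, had 0, 0, 0.0232 and 0.728 CPM in PERK KO libraries 1 to 4, against 0.145, 0.0172, 0.628 and 0 CPM in Scramble libraries 2 to 5. Vpreb3 reached 0.636 CPM in PERK KO library 1 and 0.103 CPM in Scramble library 3, the highest of each group. The 1 tested gene of that list, Il7r, had a log2 difference of 2.52 (edgeR adjusted p = 0.105), which DESeq2 called (adjusted p = 0.0269).

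No T cell marker was called with edgeR, and DESeq2 called 1. Of 16 listed genes 7 were tested with edgeR, 0 rose and 0 fell, 1 had an unadjusted p under 0.05, and the median log2 change was 2.11. That gene, Cd8a, the coreceptor of cytotoxic T cells, had 0.703, 0.488, 1.39 and 7.59 CPM in PERK KO libraries 1 to 4, against 0, 0.481, 0 and 0.116 CPM in Scramble libraries 2 to 5 (edgeR adjusted p = 0.0835). DESeq2 called it, with a log2 change of 4.14 (adjusted p = 0.00917). Cd3e, a signalling chain that all T cell receptors use, had 0.167, 1.49, 0.697 and 6.81 CPM in PERK KO libraries 1 to 4, against 0.434, 0.515, 0.152 and 1.01 CPM in Scramble libraries 2 to 5. The list summed to 5.63, 6.9, 6.59 and 38.7 CPM in PERK KO libraries 1 to 4 and to 1.58 to 4.17 CPM in Scramble libraries. PERK KO library 4 was the highest for this list, for the immunoglobulin sum and for the T cell receptor sum. Of 8 gamma delta and innate-like lymphocyte genes 4 were tested and 1 rose, Zbtb16 (PLZF), by 4.05 (edgeR adjusted p = 0.0447), a call that ended in each of the 8 fits without 1 library (0.0517 to 0.103). Of 8 NK cell genes 3 were tested and 1 rose, Klrd1 (CD94), by 3.29 (edgeR adjusted p = 0.0354), a call that ended without PERK KO library 3 or 4 or Scramble library 2, 3 or 5 (0.0564 to 0.121) and with no filter (0.0776).

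Most tested receptors that bind antibody rose in PERK KO. Of 10 tested genes of the list 8 rose and 0 fell, with a median log2 change of 2.5. Fcgr2b, the inhibitory IgG receptor, rose by 1.5, Fcer1g, a shared signalling chain, by 2.9 and Ms4a2, the beta chain of the IgE receptor, by 3.44 (edgeR adjusted p = 0.00581, 0.0059 and 0.00612). Fcgrt, which carries IgG across cells, rose by 1.38 (edgeR adjusted p = 0.0116). Pigr, which carries IgA and IgM across epithelium, had 0, 1.34, 0.0929 and 0.884 CPM in PERK KO libraries 1 to 4 and no Scramble count. Fcmr, the IgM receptor, was 8.55 CPM in PERK KO library 4 and at most 0.789 CPM in every other library.

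Lists of other cell types also held genes that differed between the groups. Of 8 pan-leukocyte genes 7 rose and 0 fell (median log2 change 2.9), among them Ptprc, which encodes CD45, by 2.88 (edgeR adjusted p = 0.0179), and Cd52 by 4.02 (0.0117). The Ptprc call ended without Scramble library 2 (0.0504) or 3 (0.0688) and with no filter (0.0521). Without PERK KO library 4 the changes were 2.16 for Ptprc and 3.14 for Cd52. The summed list was 488 to 1190 CPM in PERK KO and 287 to 361 CPM in Scramble libraries. Arhgdib, the gene of the list that was not called (log2 difference 0.19, edgeR adjusted p = 0.428), made up much of it. Its level was 203 to 340 CPM in PERK KO and 223 to 263 CPM in Scramble libraries, so the sum understates the difference of the called genes. Of 12 glandular epithelium genes 11 rose and 0 fell (median 6.22), among them Epcam by 5.77 (edgeR adjusted p = 9.11e-05), and their sum was 113 to 321 CPM in PERK KO and 2.73 to 8.45 CPM in Scramble libraries. Of 4 tested plasmacytoid dendritic cell genes 2 rose, Runx2 by 2.56 and Ly6d by 5.2 (edgeR adjusted p = 0.00277 and 0.00357). Bst2 and Tcf4, also tested, differed by 0.35 and -0.2 and did not pass (edgeR adjusted p = 0.208 and 0.376). That list summed to 215 to 370 CPM in PERK KO and 210 to 253 CPM in Scramble libraries, overlapping ranges. Siglech, which defines those cells, had counts in PERK KO libraries 3 and 4 and Scramble library 2 only. Of 8 melanocyte lineage genes 4 fell and 0 rose, with a median of -0.38. The part of these cell types in the antigen receptor levels was not tested.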

How the data were processed

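RNA of 8 c-Kit bead preparations, 4 from PERK KO and 4 from Scramble B16F10 tumours, was made into strand-specific libraries with a NuGEN kit from 100 ng of RNA and read as pairs of 105 bases, per the labels' protocols. Per the submitters' processing notes the build was mm10 and the tools included STAR (2.5.3a), HTSeq (0.6.1), DESeq2 (1.30.1) and bcl2fastq. The strand setting, and how reads that match several genes were counted, are not given in the sources used here. The table the authors deposited holds whole-number raw counts per gene and library, of 29006949 to 56697163 per library. A second deposited table, a signal equal to the counts times 1 constant per library, was used only to check the first.

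Positions (mm10) and sequences were read from GENCODE M21, which held each of the 55450 gene identifiers. The 8 gene types are those of C, D, J and V segments, and pseudogene types had no count. The members and the marker lists were chosen with earlier results of these data known.

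Genes were filtered by group with filterByExpr, which left 16662, and scaled with TMM factors of 0.863 to 1.03. The test was edgeR's quasi-likelihood test (version 4.0.16 in R 4.3.3, robust fit, group as the only term) at a Benjamini-Hochberg adjusted p of 0.05 over all genes tested. CPM values follow edgeR's definition with the TMM-scaled library total, and ± gives the SD over 4 libraries. Log2 changes are PERK KO over Scramble. Shares have exact Clopper-Pearson intervals at 95% (scipy 1.17.1). Sequence stretches were compared with Biopython 1.88, and plots made with matplotlib 3.10.9.

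Genes named are the constant members, other called members, up to 3 members with the largest counts for each chain and segment type, and up to 4 called genes of each list by p, with the 2 of highest level taken from a list with no call. Igkv4-91, Ighv12-3, Ms4a1, Cd79a, Pax5, Cd22, Fcrla, Tnfrsf17, Tnfrsf13b, Sdc1, Ptprc, Arhgdib, Siglech, Bst2, Tcf4, Pigr and Fcmr were named after their values were seen. So were the genes of receptor assembly, segments that lead a single library, and segments just below the limit of 10 counts.

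Alternatives were RLE, upper-quartile and library-total scaling, DESeq2 1.42.0, no filter, a stricter filter, a fit that is not robust, the replicate number as a block, and fits without 1 library each. The immunoglobulin and T cell receptor sums were also taken over all rows of the gene types, with no minimum count. Summing the constant genes of a chain, and running the alternatives on named marker genes, were added after seeing the data.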

Additional observations from a re-analysis of the deposited data

Results flagged for a closer look

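In each group of 4 libraries the most extreme library was compared with its nearest neighbour, as the gap over the whole range. A value above Dixon's critical value stands apart at the 95% level, which chance gives in about 1 in 20 groups. Of 178 groups tested, 60 were past it. In 55 of these the ratio was 1, because only 1 library of the group had a count. These are the members seen in a single library of a group, such as Ighv1-9 in PERK KO library 2 and Trbc2 in Scramble library 2. They include the Scramble sums of the gamma and delta chains, which rest on libraries 3 and 5.

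The other 5 had nonzero neighbours. Iglc2 in PERK KO stood apart with a ratio of 0.975, through 7.49 CPM in library 4. The summed T cell list in PERK KO had a ratio of 0.962, through 38.7 CPM in library 4 beside 5.63 to 6.9 CPM in the other three. Igkv19-93 and Trac in Scramble had ratios of 0.934 and 0.84, both through library 5. The summed antibody receptor list in Scramble had a ratio of 0.842, through 44.4 CPM in library 4, the lowest.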

How the results depend on the processing

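All 4 members called were higher in PERK KO under every setting tried, and none of the 9 tested members changed direction. The number of members called was 3 with RLE, upper-quartile or library-total scaling and without the filter, 4 with the stricter filter or the fit that is not robust, 6 with DESeq2, and 1 to 4 without 1 library (1 without Scramble library 5, and 2 without PERK KO library 2 or 4 or Scramble library 4). Over all genes 2299 were called, with 1998 to 2616 without 1 PERK KO library and 1078 to 1428 without 1 Scramble library. The cause of these changes was not tested. Upper-quartile factors made 68.7% of all calls higher, and library totals 47.7%, against 55.5% with TMM. With the replicate number as a block, 208 genes and 0 members were called. No label says that same-numbered libraries form pairs, and PERK KO library 1 and Scramble library 5 have no same-numbered partner. Same-numbered libraries deviated from their group means with correlations of -0.01, 0.10 and -0.20, and differently numbered ones with -0.09 to 0.14. These values cannot show whether a batch was shared, and the block is no check of a pairing.

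For named members, 118 alternative values kept their side of the threshold, 4 passed newly and 23 no longer passed. For named marker genes these were 284, 2 and 31, and 1 changed sign, Cd79a, which was no call and ran from -0.86 without PERK KO library 4 to 1.49 without PERK KO library 2. The immunoglobulin ratio was 8.6 to 22.3 and the T cell receptor ratio 7.9 to 16.7 over all settings. Few counts limit the precision of the shares and of the V, D and J segments.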
